A study of Mus musculus with 6 samples.

Results

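T cells and natural killer (NK) cells were followed in the larger proximal airways through 34 genes of T cell receptor signalling, T cell identity, activation and killing. The genes were listed by name and role, and a gene was read from the array row that named it alone. Of the 34 genes 32 had such a row, out of 19938 genes measured. The other two, Tcf7 and Lck, had no row under this rule and were not analysed here. None of the 32 had more than 1 row to choose from.

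The airways were dissected from stained sections of frozen lung of 9-week-old mice on a mixed C57BL/6 and 129X1 background, and RNA from each of 6 samples was hybridised to a mouse gene array. The 3 control arrays carried the Scgb1a1-Cre driver alone, and the 3 mutant arrays carried the same driver with Foxp1flox/flox and Foxp4flox/flox. The driver uses the promoter of a secretory protein of airway club cells, so lymphocytes are not the cells it is meant to target. The labels number the samples 1 to 3 in each group and do not state that each came from its own mouse, and a p-value here therefore reflects variation among these 6 samples, some of which could be technical.

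T cells recognise antigen with a receptor whose CD3 and zeta chains carry the signal inwards, where the kinases Lck and Zap70 and the adaptor Lat pass it on. Naive T cells, which express the factor Lef1, circulate through lymphoid tissue, whereas activated, helper and regulatory T cells switch on receptors such as Icos, Ctla4 and Pdcd1. NK cells and cytotoxic T cells kill through perforin and granzymes. In the airway wall T cells lie scattered beneath the epithelium or gather with B cells in lymphoid clusters. In RNA from a whole tissue piece, fewer cells of a type and less RNA per cell cannot be told apart.

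The values are log2 expression values, so a difference of 1 is 2-fold, and a level is compared only between arrays for the same gene. Array medians lay between 5.89 and 5.95, and lower quartiles between 4.42 and 4.50. Airway epithelial genes were present on every array, with the club cell gene Scgb1a1 between 12.13 and 12.58. The targeted genes were lower on every mutant array than on every control array, with a log2 difference (mutant minus control throughout) of -0.23 for Foxp1 (SE 0.085, limma adjusted p = 0.444) and -0.69 for Foxp4 (SE 0.20, adjusted p = 0.339), and neither passed the threshold of 0.05. The pan-leukocyte gene Ptprc read 7.93, 10.23 and 9.95 in controls 1, 2 and 3 and 7.62, 9.35 and 7.78 in mutants 1, 2 and 3. Control 1 therefore lay below mutant 2 for leukocyte RNA, while controls 2 and 3 lay above every mutant. Results that rest on these arrays are given with and without them.

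Promoter stretches of 6 genes are shown, from T cell surface genes and from killer cell genes. Each gene is shown with a motif that it carries, so the stretches do not show that a motif goes with a pattern of values. GGAAGT also lies in the killer gene Prf1 and TGTGGT in the T cell genes Lat, Tigit and Zap70, while Cd3g has no GGAAGT match. The stretches are RefSeq sequences of assembly GRCm38.p6, covering the 250 bases before the annotated start site, 5′ to 3′ on the gene's strand. Capitals mark GGAAGT or its reverse complement, the core bound by ETS factors, in Cd3d (chr9:44981536-44981785, plus strand), Cd3e (chr9:45009612-45009861, minus strand) and Cd5 (chr19:10738975-10739224, minus strand). They mark TGTGGT or its reverse complement, the core bound by RUNX factors, in Gzma (chr13:113100982-113101231, minus strand), Gzmb (chr14:56262335-56262584, minus strand) and Ncr1 (chr7:4337465-4337714, plus strand, the first of its annotated starts).
Cd3d: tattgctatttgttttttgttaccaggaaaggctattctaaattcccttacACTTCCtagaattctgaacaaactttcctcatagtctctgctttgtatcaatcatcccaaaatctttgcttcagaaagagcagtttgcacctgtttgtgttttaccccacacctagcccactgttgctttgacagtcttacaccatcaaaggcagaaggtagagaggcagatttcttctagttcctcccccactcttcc
Cd3e: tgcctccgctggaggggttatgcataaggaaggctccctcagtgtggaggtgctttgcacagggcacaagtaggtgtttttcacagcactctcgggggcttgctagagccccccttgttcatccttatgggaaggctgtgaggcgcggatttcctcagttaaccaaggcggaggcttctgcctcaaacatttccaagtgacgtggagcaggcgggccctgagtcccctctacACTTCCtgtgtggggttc
Cd5: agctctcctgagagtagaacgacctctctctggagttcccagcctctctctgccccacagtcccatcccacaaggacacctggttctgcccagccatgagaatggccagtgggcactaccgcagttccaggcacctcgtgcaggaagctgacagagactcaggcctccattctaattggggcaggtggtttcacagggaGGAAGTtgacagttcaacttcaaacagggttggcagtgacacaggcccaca
Gzma: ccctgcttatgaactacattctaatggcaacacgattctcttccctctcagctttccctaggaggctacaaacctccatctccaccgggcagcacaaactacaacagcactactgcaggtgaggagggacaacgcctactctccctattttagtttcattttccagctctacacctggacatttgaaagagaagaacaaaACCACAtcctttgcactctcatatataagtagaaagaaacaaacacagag
Gzmb: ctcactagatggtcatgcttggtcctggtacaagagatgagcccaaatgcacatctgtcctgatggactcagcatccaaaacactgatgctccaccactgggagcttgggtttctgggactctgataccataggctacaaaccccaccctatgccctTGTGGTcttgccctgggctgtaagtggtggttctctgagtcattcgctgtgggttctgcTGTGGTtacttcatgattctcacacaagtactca
Ncr1: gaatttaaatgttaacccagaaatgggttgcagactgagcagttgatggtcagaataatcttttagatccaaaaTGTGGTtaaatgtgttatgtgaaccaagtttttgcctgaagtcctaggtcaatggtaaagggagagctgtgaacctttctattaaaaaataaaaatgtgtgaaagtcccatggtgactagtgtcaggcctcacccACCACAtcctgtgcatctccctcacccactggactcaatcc

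The table of promoters held 22 of the 32 genes, and motifs were searched on both strands of windows of 300 bases, from 250 before to 50 after each start. The 4 motifs were chosen after the expression values were seen. A gene was counted if any of its annotated starts had the motif, whereas the shares of all promoters count each promoter once. Counts and shares are therefore of unlike units, and a gene with several starts had more chances of a match. GGAAGT was found in 8 of the 22 genes, namely Cd247, Cd3d, Cd3e and Zap70 of the receptor complex and its signalling and Cd5, Lef1, Tbx21 and Prf1. It is present in 23.8% of all promoters of that length. TGTGGT was found in 9 of the 22, among them 6 of the 7 cytotoxic and NK genes in the table (Gzma, Gzmb, Klrk1, Ncr1, Nkg7 and Prf1) and 3 of the 15 others (Lat, Tigit and Zap70), against 16.8% of all promoters. CTTTGA, the core bound by TCF and LEF factors, was found in Cd247, Cd27, Cd3d, Ctla4, Klrk1, Lef1 and Zap70 (16.0% of all promoters), and AGATAA, the core bound by GATA factors, in Cd3g, Lef1 and Tigit (11.2%). No motif is identical to another or to its reverse complement, and overlaps between matches were not counted. A match describes these letters and shows no binding.

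The genes of the CD3 chains read lower in mutant than in control airways on average, with control 1 close to the mutants. Cd3d, the delta chain, read 5.96, 8.16 and 8.12 on control arrays 1, 2 and 3 and 5.36, 6.43 and 4.90 on mutant arrays 1, 2 and 3. Cd3e, the epsilon chain, read 7.19, 9.41 and 9.05 in controls and 6.91, 7.55 and 6.66 in mutants. Cd3g, the gamma chain, read 6.78, 9.15 and 9.03 in controls and 6.00, 7.60 and 6.25 in mutants. In all of these controls 2 and 3 were the highest arrays, and mutant 2 lay above control 1, so the groups overlapped. The log2 differences were -1.85 for Cd3d (SE 0.68, limma adjusted p = 0.442), -1.51 for Cd3e (SE 0.585, adjusted p = 0.472) and -1.70 for Cd3g (SE 0.72, adjusted p = 0.508), and none passed. These genes lie side by side on chromosome 9 with no other protein-coding gene between them, and the start sites of Cd3g and Cd3d are 1355 bases apart on opposite strands.

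The remaining genes of the receptor complex did not all follow the CD3 chains. Cd247, which encodes the zeta chain, read 6.11, 6.89 and 6.52 in controls and 5.89, 6.15 and 5.90 in mutants, a log2 difference of -0.53 (SE 0.20, adjusted p = 0.469). Lat, the adaptor of the activated receptor, read 6.53, 8.37 and 8.43 against 6.33, 6.96 and 6.58, a difference of -1.15 (SE 0.52, adjusted p = 0.534). Zap70, the kinase that binds the phosphorylated chains, had another order of arrays, since mutant 3 lay above control 2. It read 5.62, 6.21 and 6.41 in controls and 5.98, 6.01 and 6.29 in mutants, with a difference of 0.02 and a 95% interval from -0.49 to 0.53. The median of the 6 genes of this group was -1.33, beside 0.02 over all genes.

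**Figure D1:**
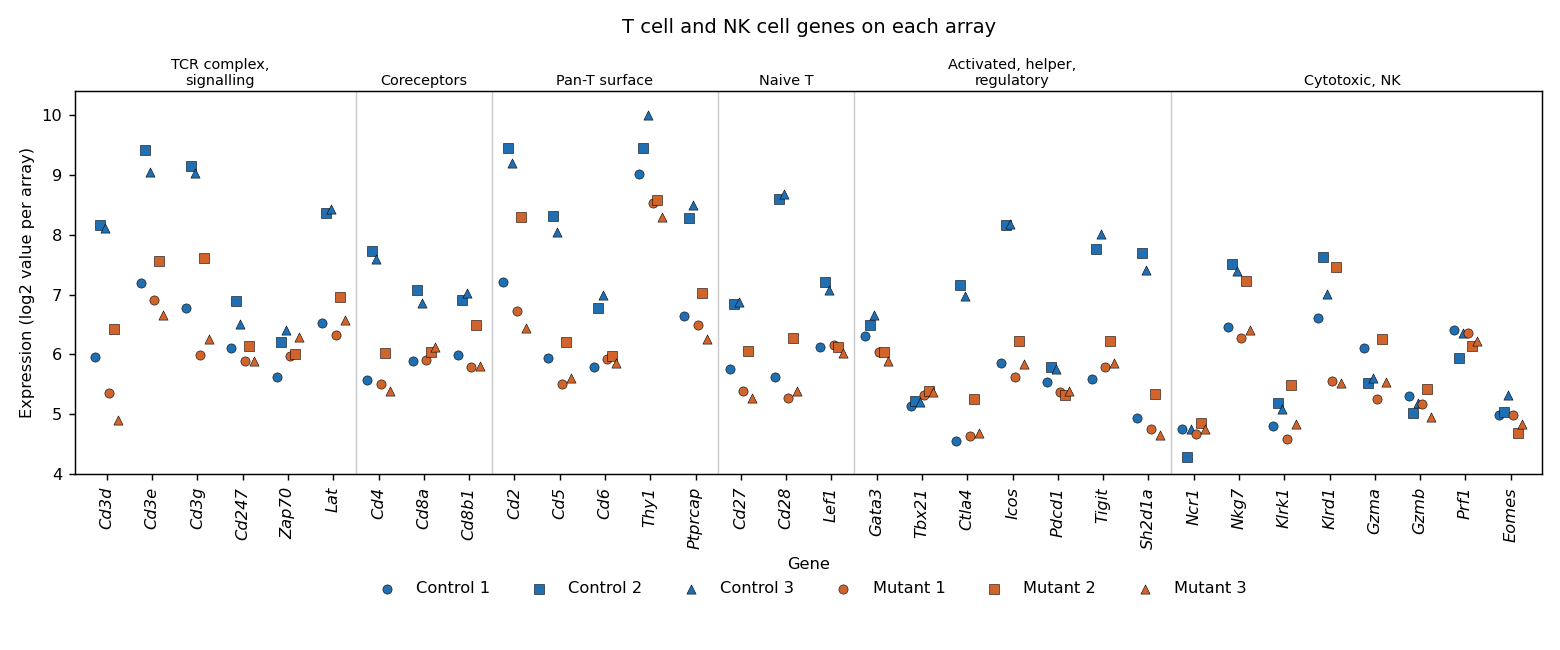
Log2 expression of each of the 32 genes (x axis, grouped by role) on the 3 control arrays (blue) and 3 mutant arrays (orange), with 1 marker per array. For most T cell genes the blue square and triangle, controls 2 and 3, stand apart at the top (Cd28 at 8.59 and 8.67) and the blue circle, control 1, lies among the mutants (5.62), whereas in the cytotoxic and NK group the arrays lie closer together.

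The coreceptor genes mark helper and cytotoxic T cells. Cd4, the helper coreceptor, read 5.58, 7.72 and 7.59 in controls and 5.51, 6.03 and 5.40 in mutants, a log2 difference of -1.32 (SE 0.57, adjusted p = 0.517). Cd8a and Cd8b1, which encode both chains of the cytotoxic coreceptor, had differences of -0.59 (SE 0.30, adjusted p = 0.583) and -0.61 (SE 0.32, adjusted p = 0.601). Cd8a read 5.90, 7.08 and 6.86 against 5.90, 6.04 and 6.12, and Cd8b1 read 6.00, 6.92 and 7.02 against 5.79, 6.50 and 5.81. For all of them controls 2 and 3 were again the highest arrays. Whether Cd4 differed more than Cd8a was not tested.

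Surface genes shared by T cells gave the same order of arrays, but for Thy1 the groups did not overlap. Cd2, an adhesion receptor of T and NK cells, read 7.20, 9.45 and 9.20 in controls and 6.72, 8.29 and 6.45 in mutants, a log2 difference of -1.46 (SE 0.72, adjusted p = 0.572), and mutant 2 lay above control 1. Cd5, which dampens receptor signals, read 5.95, 8.32 and 8.05 against 5.50, 6.21 and 5.61 (difference -1.66, SE 0.62, adjusted p = 0.450). Both had controls 2 and 3 on top. Cd6, a related receptor and the neighbour of Cd5 on chromosome 19, read 5.79, 6.77 and 6.99 against 5.93, 5.98 and 5.85 (difference -0.60, SE 0.30, adjusted p = 0.581), and here control 1 was the lowest array. Ptprcap, a partner of the phosphatase CD45, read 6.64, 8.29 and 8.50 against 6.49, 7.03 and 6.25 (difference -1.22, SE 0.50, adjusted p = 0.490). Thy1, a surface protein of T cells that fibroblasts and nerve cells also make, read 9.00, 9.44 and 9.99 in controls and 8.53, 8.58 and 8.29 in mutants. Every mutant lay below every control, and the difference was -1.01 (SE 0.25, adjusted p = 0.251).

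The genes listed under naive T cells were described apart. In all of them controls 2 and 3 were the highest arrays, as for most other T cell genes, so they do not single out naive cells. Cd28, the costimulatory receptor that naive T cells need for activation, had the largest difference of the 32 genes. It read 5.62, 8.59 and 8.67 in controls and 5.28, 6.28 and 5.39 in mutants, a log2 difference of -1.98 with a 95% interval from -3.97 to 0.01 (SE 0.83, adjusted p = 0.501). The range among its controls was 3.05, larger than the difference between the groups. Cd27, a costimulatory receptor of the tumour necrosis factor receptor family, read 5.76, 6.84 and 6.87 against 5.38, 6.06 and 5.27 (difference -0.92, SE 0.35, adjusted p = 0.469). Lef1, a transcription factor of naive and developing T cells that epithelia also use, read 6.13, 7.21 and 7.08 against 6.16, 6.12 and 6.02 (difference -0.71, SE 0.28, adjusted p = 0.475). Its mutant arrays spanned 0.14, and control 1 lay within them.

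Activated, helper and regulatory T cell genes included some with wide gaps between control arrays and some that were steady within each group. Ctla4, the inhibitory receptor of regulatory and activated T cells, read 4.55, 7.16 and 6.98 in controls and 4.64, 5.26 and 4.69 in mutants, a log2 difference of -1.37 (SE 0.68, adjusted p = 0.580). Control 1 was its lowest array. Icos, a costimulatory receptor of helper cells that aid B cells, read 5.85, 8.15 and 8.18 against 5.62, 6.23 and 5.85 (difference -1.50, SE 0.62, adjusted p = 0.499). Cd28, Ctla4 and Icos lie next to each other on chromosome 1. Sh2d1a, the adaptor SAP of helper cells that aid B cells, read 4.94, 7.70 and 7.40 against 4.76, 5.34 and 4.66 (difference -1.76, SE 0.71, adjusted p = 0.484), and Tigit, an inhibitory receptor, read 5.59, 7.76 and 8.01 against 5.79, 6.23 and 5.86 (difference -1.16, SE 0.62, adjusted p = 0.608). In each of these genes controls 2 and 3 exceeded every other array by more than 1 log2 unit.

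The remaining genes of that group were steady within each group of arrays. Gata3, the factor of type 2 helper cells that epithelial cells also express, read 6.31, 6.49 and 6.65 in controls and 6.03, 6.05 and 5.89 in mutants. The groups did not overlap, and the log2 difference was -0.50 (SE 0.11, adjusted p = 0.212). Pdcd1, which encodes the inhibitory receptor PD-1, read 5.55, 5.79 and 5.76 against 5.37, 5.33 and 5.39 (difference -0.33, SE 0.093, adjusted p = 0.322), also without overlap. Tbx21, the factor T-bet of type 1 helper and NK cells, ran the other way, with 5.15, 5.22 and 5.21 in controls and 5.33, 5.38 and 5.38 in mutants (difference 0.17, SE 0.073, adjusted p = 0.515). Pdcd1 and Tbx21 lay below the array median on all 6 arrays. Leaving out the lowest 40% of all genes removed both of them, and also Ctla4 and Sh2d1a.

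Of the 8 cytotoxic and NK cell genes 2, Nkg7 and Eomes, had controls 2 and 3 as the highest arrays. Klrd1 (CD94), a receptor chain of NK and cytotoxic T cells, read 6.60, 7.62 and 7.02 in controls and 5.56, 7.46 and 5.52 in mutants, a log2 difference of -0.89 (SE 0.56, adjusted p = 0.668), so mutant 2 lay with the controls. Nkg7, a granule protein, read 6.46, 7.51 and 7.39 against 6.27, 7.22 and 6.41 (difference -0.49, SE 0.36, adjusted p = 0.722), with mutant 2 above control 1. Gzma, the granzyme A gene, was highest in mutant 2 (6.27) and control 1 (6.11) and read 5.52 and 5.62 in controls 2 and 3 and 5.25 and 5.54 in mutants 1 and 3 (difference -0.06, SE 0.29, adjusted p = 0.972). Mutant 2 was also the highest array for Klrk1 (5.50), the receptor NKG2D, for Gzmb (5.43), the granzyme B gene, and for Ncr1 (4.85), the NK receptor NKp46.

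The other killer genes had log2 differences between -0.28 and 0.16. Klrk1 read 4.804, 5.19 and 5.09 in controls and 4.58, 5.50 and 4.83 in mutants, Gzmb 5.30, 5.03 and 5.18 against 5.17, 5.43 and 4.95, and Ncr1 4.76, 4.29 and 4.75 against 4.67, 4.85 and 4.75. The groups overlapped in each. Klrk1 differed by -0.05 (95% interval -0.64 to 0.53), Gzmb by 0.01 (-0.33 to 0.36), Ncr1 by 0.16 (-0.19 to 0.51) and Prf1, the perforin gene, by 0.00 (-0.34 to 0.34) on the log2 scale. Prf1 read 6.40, 5.95 and 6.36 in controls and 6.35, 6.14 and 6.22 in mutants. Eomes, a factor of NK and memory cytotoxic cells, read 4.998, 5.04 and 5.33 against 4.99, 4.70 and 4.85 (difference -0.28, SE 0.13, adjusted p = 0.540), without overlap of the groups. The median difference of these 8 genes was -0.06, and that of the other 24 was -1.15. The former was not steady: it was -0.49 over the 3 genes that remain when the lowest 40% of all genes are left out, -0.16 when control 2 was left out, and -0.019, -0.26 and 0.010 when mutants 1, 2 and 3 were left out in turn. Among the other 24, the median of the activated group was not steady either. It was -1.16 with all arrays and -1.92 without control 1, and it moved the other way in other settings. Ncr1, Klrk1, Gzmb and Eomes lay below the array median on all 6 arrays. A difference between killer and other T cell genes was not tested.

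**Figure D2:**
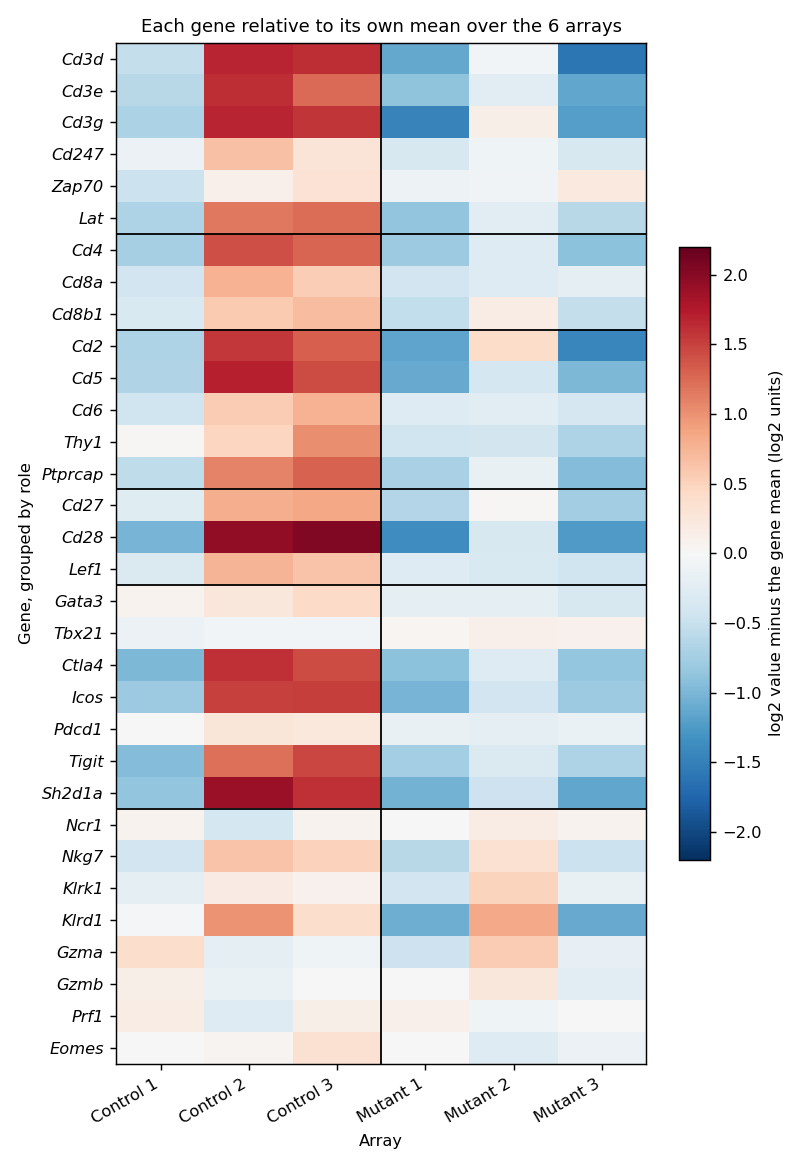
Log2 value of each gene minus its own mean over the 6 arrays (colour, red above and blue below the mean), with the 3 control arrays left and the 3 mutant arrays right of the vertical line and roles separated by horizontal lines. Controls 2 and 3 are the 2 highest arrays for 22 of the 24 genes above the cytotoxic and NK group and for 2 of the 8 within it, where mutant 2 is highest for 4.

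Over all 32 genes, 27 were lower in mutants on average, where 45.4% of all genes were lower, and 14 were at least 2-fold lower, as were 1.03% of all genes. The median log2 difference was -0.80. In limma's test none of the 32 passed after Benjamini-Hochberg adjustment over all genes, in either direction, where 0.266% of all genes passed, 0.0301% as lower and 0.236% as higher. At an unadjusted p under 0.05 there were 11 of the 32, all lower (4.17% of all genes were lower and 5.9% higher at that p). Cd247, Cd27, Cd3d, Cd3e, Cd5, Gata3, Lef1, Pdcd1, Ptprcap, Sh2d1a and Thy1 made up these 11. The groups did not overlap for 4 genes with lower values in mutants, Thy1, Gata3, Pdcd1 and Eomes (5.64% of all genes), and for 1 with higher values, Tbx21 (9.33%).

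**Figure D3:**
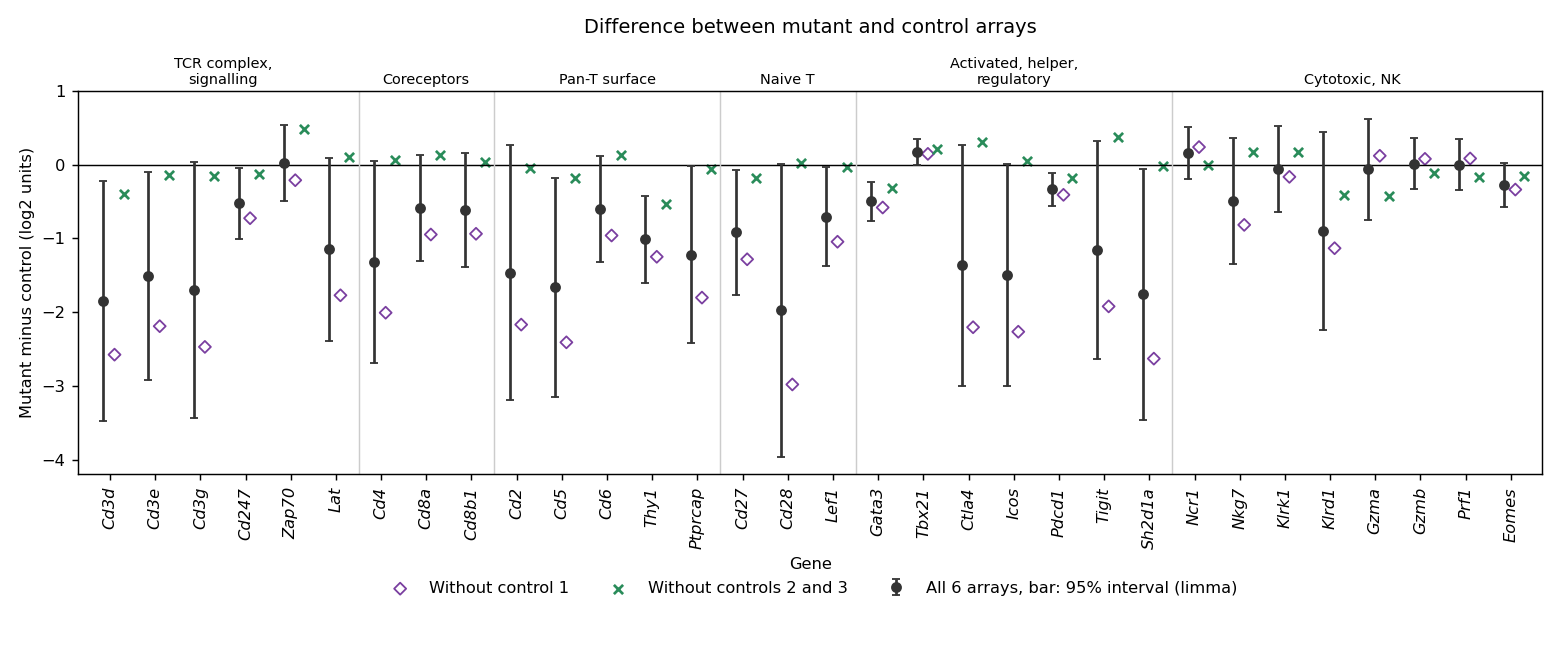
Difference between mutant and control arrays (y axis, log2 units, below 0 lower in mutants) for each gene, as a filled point with limma's 95% interval for all 6 arrays, an open diamond without control 1 and a cross without controls 2 and 3. Without control 1 Cd28 moved from -1.98 to -2.98, and without controls 2 and 3 it stood at 0.03.

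Most of the T cell genes gave the same order of arrays. Controls 2 and 3 were the 2 highest arrays for 24 of the 32 genes and for 22 of the 24 outside the cytotoxic and NK group, against 9.61% of all genes. Zap70 and Tbx21 were the 2 that departed. Among cytotoxic and NK genes this order held for 2 of 8, Nkg7 and Eomes. Control 1 was the lowest control for 28 of 32 genes (30.1% of all genes) and lay below the highest mutant for 27 of 32 (72.7% of all genes). Mutant 2 was the highest mutant for 26 of 32 (34.5% of all genes).

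The number of calls depended on control 1. Without control 1, limma called 15 of the 32 genes, all lower in mutants, where 1.36% of all genes were called lower and 0.587% higher. These were Cd3d, Cd3e and Lat of the receptor complex, Cd4 and Cd8a, the surface genes Cd5, Cd6, Thy1 and Ptprcap, Cd28 and Lef1 of the naive group, and Ctla4, Icos, Tigit and Sh2d1a. None of the 8 cytotoxic and NK genes was called in that setting. There the log2 difference was -2.98 for Cd28 (SE 0.30, adjusted p = 0.017), -2.63 for Sh2d1a (SE 0.23, adjusted p = 0.0129) and -2.27 for Icos (SE 0.18, adjusted p = 0.0122). Control 1 was the lowest control for 28 of the 32 genes, but for 4 of the 8 cytotoxic and NK genes. The calls made without it follow from that choice of array and are no separate result. When any other single array was left out, 0 of the 32 were called, with 3 to 13 lower and none higher at an unadjusted p under 0.05. The share of all genes at that p was not counted in these fits, so the 3 to 13 cannot be set against it. Without control 1 and mutant 2 together, a setting chosen with earlier results known, limma called 23, all lower. There 3.22% of all genes were called lower and 1.6% higher. That setting omits the lowest control for 28 of the 32 genes and the highest mutant for 26. Its calls follow from that choice of arrays and are no separate result. These 23 included Nkg7 (log2 difference -1.11, adjusted p = 0.00625) and Klrd1 (-1.77, adjusted p = 0.00934) of the cytotoxic and NK group. With all 6 arrays weighted by their fit limma called Thy1 (log2 difference -1.34, adjusted p = 0.0461) and Gata3 (-0.62, adjusted p = 0.042), where 0.386% of all genes were called lower and 1.07% higher. Without controls 2 and 3 together, a setting chosen with earlier results known, the median became -0.04 and the genes Cd4, Cd28, Ctla4, Icos and Tigit stood at 0.07, 0.03, 0.31, 0.05 and 0.37, none of them called. That setting leaves 1 control array, which for most of these genes lay among the mutants, so these values follow from the order of the arrays and are no separate result. Over all genes the number called was 53 with all arrays, 388 without control 1, 9 and 10 without controls 2 and 3 in turn, and 16, 24 and 15 without mutants 1, 2 and 3.

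Genes of other cell types were also high on controls 2 and 3, and their part in these results was not tested. The mean of the 24 T cell genes outside the cytotoxic group was 6.07, 7.63 and 7.61 in controls 1, 2 and 3 and 5.88, 6.40 and 5.87 in mutants 1, 2 and 3. All 14 measured B cell genes were lower in mutants on average, and their mean was 6.46, 9.47 and 9.12 against 5.78, 7.58 and 5.89. Plasma cell genes (7 of 8 lower) gave 7.0, 8.76 and 8.85 against 6.87, 7.38 and 7.06, and pan-leukocyte genes (15 of 15 lower) gave 7.95, 9.61 and 9.52 against 7.52, 8.78 and 7.50. Genes of lymphoid stroma and high endothelium, the vessels through which lymphocytes enter lymphoid tissue, gave 6.46, 8.22 and 7.98 against 6.44, 6.85 and 6.32 (7 of 9 lower). Among these Glycam1, a ligand for lymphocyte homing on such vessels, read 5.21, 11.40 and 11.16 in controls and 5.35, 6.80 and 5.34 in mutants, and Ccl19, a chemokine that draws T cells, read 9.02, 11.55 and 10.72 against 8.36, 8.67 and 8.54. Neither passed (adjusted p = 0.561 and 0.371).

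Proliferation genes (13 of 14 lower, median -0.55) gave 5.96, 7.68 and 7.48 against 6.55, 6.62 and 6.41. Controls 2 and 3 were the 2 highest arrays for all 14 of them, as for most T cell genes, and control 1 lay below all mutants in the mean. Myeloid genes had a median log2 difference of 0.02, and averaged 7.67, 7.69 and 7.82 over the control arrays against 7.50, 8.02 and 7.42 over the mutant arrays, so mutant 2 was highest. The 8 cytotoxic and NK genes of the 32 gave 5.68, 5.77 and 5.84 against 5.36, 5.95 and 5.39, also with mutant 2 at the top. The 19 further cytotoxic and NK genes did not have that order and gave 5.59, 6.08 and 6.10 against 5.49, 5.71 and 5.37, with controls 2 and 3 at the top. Airway epithelial genes had a median of 0.20 and averaged 10.69, 10.53 and 10.25 against 10.82, 10.15 and 10.67, and none passed. Of 7 measured genes of developing T cells 6 were lower, with a median of -0.07, and their mean lay between 4.97 and 5.24 in controls and between 4.85 and 4.99 in mutants. Rag1 (4.12 to 4.41), Rag2 (3.78 to 3.91), Dntt (4.21 to 4.42) and Ptcra (4.64 to 5.11), which act in receptor assembly in the thymus, lay below the array median on all 6 arrays. Ccr9, a chemokine receptor of thymocytes and gut-homing T cells, read 4.85, 6.64 and 5.47 against 4.79, 5.09 and 4.75 (difference -0.77, SE 0.43), and like Cd8b1, which is also on this list, it had controls 2 and 3 as the highest arrays. The part of such cells in the results was not tested.

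**Figure D4:**
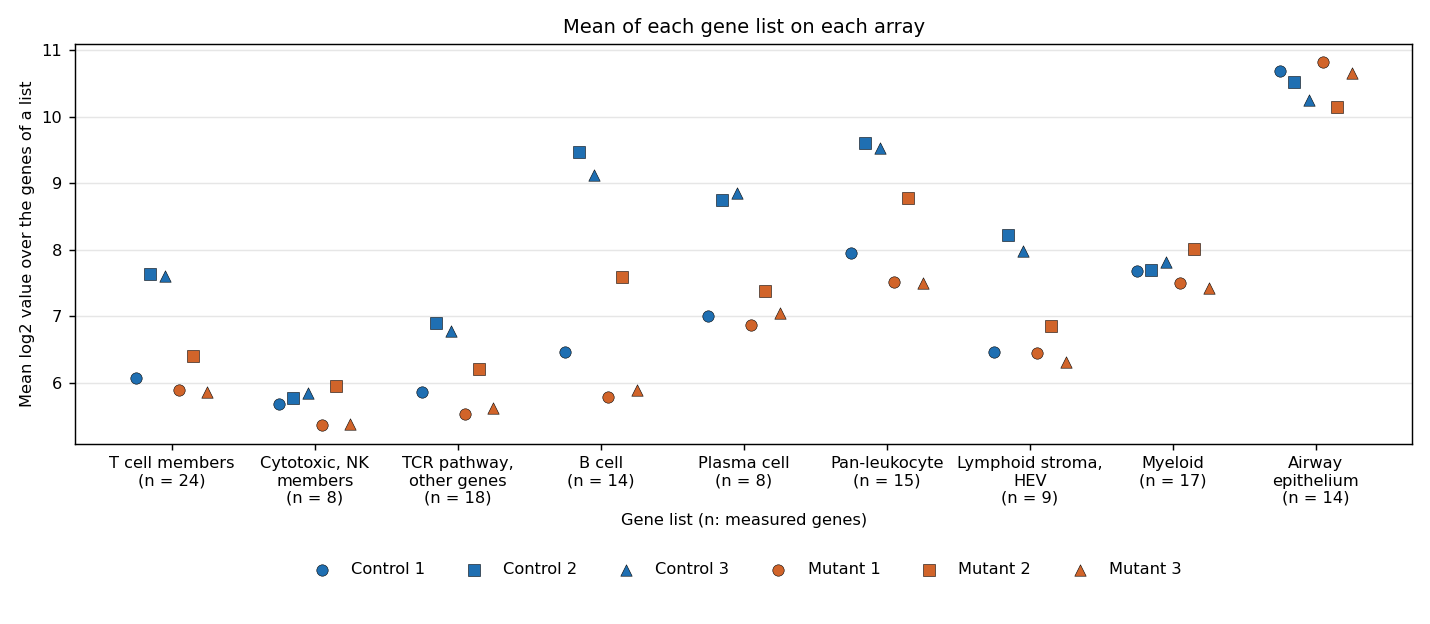
Mean log2 value over the measured genes of each list (x axis, with the number of genes) on the 3 control arrays (blue) and 3 mutant arrays (orange); HEV stands for high endothelial venule. Controls 2 and 3 are highest for T cell, B cell, plasma cell, pan-leukocyte and lymphoid stroma genes, whereas mutant 2 is highest for the 8 cytotoxic and NK genes (5.95) and myeloid genes (8.02).

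Further genes of the same pathways, outside the 32, were read from lists drawn up by function. Of 18 measured genes of T cell receptor signalling all 18 were lower in mutants on average and none passed, with a median log2 difference of -0.69. At an unadjusted p under 0.05 there were 7 of the 18, all lower, where 4.17% of all genes were lower. Cd96, a receptor of T and NK cells, had the smallest p of these (difference -1.45, SE 0.47, limma adjusted p = 0.395). Its groups did not overlap, as for 2 of the 18 (5.64% of all genes as lower). Grap2, an adaptor of the Lat signalling complex, differed by -0.89 and Ubash3a, a brake on receptor signals, by -0.63, and Sla2, an adaptor that dampens receptor signals, by -0.42. Of 13 naive and recirculating lymphocyte genes 12 were lower (median -0.43) and none passed. Their smallest p values belonged to Foxo1 (difference -0.43), Bach2 (-0.84), Igfbp4 (-0.39) and Klf2 (-0.36), which many cell types besides lymphocytes express. The groups did not overlap for any of these, which a choice by p favours. In the list this held for 4 of 13 as lower (5.64% of all genes) and 1 as higher (9.33%). The largest difference of the list, -1.35, was in a gene whose groups overlapped.

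Among 25 further genes of activated, helper and regulatory T cells 22 were lower (median -0.32), and the only one to pass ran the other way. Ccr8, a chemokine receptor known from type 2 helper and regulatory T cells, read 4.25, 4.61 and 4.34 in controls and 5.31, 5.59 and 5.61 in mutants. It rose by 1.11 log2 units (SE 0.13, adjusted p = 0.0423 in limma), with every mutant above every control. The call was lost when control 2 was left out, at an adjusted p of 0.0895, and likewise for control 3 at 0.214, mutant 1 at 0.104, mutant 2 at 0.111 and mutant 3 at 0.212. It was also lost after quantile normalisation, at 0.0603, with the replicate block, at 0.164, and without controls 2 and 3, at 0.276. Ccr8 was called in 7 of 15 alternatives, and over all of them its adjusted p ranged from 0.00984 to 0.276. Its control values lay near the lower quartile of the arrays, and its values on all 6 arrays lay below the array median. The filter on low genes left Ccr8 out and is not among these alternatives. Chosen after their values were seen, Foxp3, the factor of regulatory T cells, stood at 5.61, 6.48 and 5.97 against 5.48, 5.73 and 5.61 (difference -0.41, adjusted p = 0.605), and Cxcr5, the receptor that leads T and B cells into B cell follicles, stood at 4.67, 8.63 and 7.83 against 4.39, 6.76 and 4.39 (difference -1.86, adjusted p = 0.661).

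Of 19 further cytotoxic and NK genes 14 were lower (median -0.22) and none passed. Ccl5, a chemokine made by T and NK cells, read 9.01, 9.39 and 10.08 in controls and 8.44, 8.68 and 8.05 in mutants. Its log2 difference was -1.10 (SE 0.29, limma adjusted p = 0.293). The groups did not overlap, as for 2 of the 19 (5.64% of all genes as lower). Il2rb, a receptor chain for interleukins 2 and 15 on NK and T cells, read 6.13, 8.002 and 8.001 against 5.51, 6.31 and 5.62 (difference -1.56, SE 0.53, adjusted p = 0.413). Cd7 (difference -0.63) and then Cst7 (-1.41) followed by p. Innate lymphoid and gamma delta T cell genes had a median of -0.02 over 10 genes, 6 of them lower, and none passed.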

How the data were processed

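RNA from 3 control and 3 mutant airway samples was measured on mouse gene arrays. The authors deposited log2 expression values, 1 table for each array, made with oligo and RMA per the submitters' processing notes, which also name limma. The sources used here give neither their versions nor the array's genome build. Rows were named through the platform annotation. Of 35556 rows, 21789 had 1 gene symbol, 1621 several and 12146 none, and only the first kind was used, with the row of highest mean standing for a gene. Mutant and control arrays were compared gene by gene with limma 3.58.1 in R 4.3.3 (lmFit and eBayes) over 19938 genes, with Benjamini-Hochberg adjustment over all of them and a threshold of 0.05. Tables and plots used Python 3.11.15, pandas 2.3.3 and matplotlib 3.10.9. The number of arrays limits the precision. Tested on simulated data of 19938 genes, the fit called 81% of 100 genes lowered by 1 log2 unit. It called 98% of 100 lowered by 3. The same simulation held both sets, and 13 of its unchanged genes were called falsely. These shares cannot be read as the chance of a call for the T cell and NK genes. With all arrays 14 of those were at least 2-fold lower on average and none was called. Their SE reached 0.83, for Cd28.

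The genes and lists were chosen with earlier results of these data known. All 34 listed genes were named. Of each other list up to 4 genes with the smallest p could be named, with any past the threshold, and Foxp1, Foxp4 and Ptprc always. Other genes (Foxp3, Cxcr5, Glycam1, Ccl19, Scgb1a1 and the genes of developing T cells, where this rule did not name them) were chosen after their values were seen. The alternatives were quantile normalisation, median centring, a filter on low genes, averaged rows, array weights, a trend, a robust fit, a replicate block and leaving out arrays.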

Additional observations from a re-analysis of the deposited data

How the results depend on the processing

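With all arrays limma called 53 genes and none of the 32 T cell and NK genes. Genes called numbered 291 with array weights, 82 with an intensity trend, 963 without control 1 and mutant 2, 0 without controls 2 and 3, and 9 to 388 when 1 array was left out. Of the 32 genes, 2 were called with array weights, 23 without control 1 and mutant 2, and 0 to 15 when 1 array was left out, 15 being without control 1. The labels do not state that the replicate numbers pair the samples. Correlations of same-numbered deviations over all genes were 0.136, -0.0907 and -0.0398, which cannot exclude a pairing. With the replicate block 0 genes and 0 of the 32 were called. At an unadjusted limma p under 0.05, 18 of the 32 were lower with the block and 11 without it. Without the block 4.17% of all genes were lower at that p. The share with the block was not counted, so the 18 cannot be read as a stronger result.

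The median log2 difference of the cytotoxic and NK genes was -0.49 with the lowest 40% of genes left out, which removes 5 of the 8, and -0.26 to 0.010 when 1 array was left out. That of the activated group ran from -1.92 to -0.71 when 1 array was left out. Without control 1 and mutant 2 the medians were -2.19 for the receptor complex, -2.02 for surface genes and -2.06 for the activated group. Without controls 2 and 3 they were -0.039 over the 32 genes, -0.14 for the receptor complex, 0.068 for coreceptors, -0.053 for surface genes, -0.028 for naive genes and 0.046 for the activated group.

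Some differences changed sign. Gzmb and Prf1 stood at -0.014 and -0.0096 after quantile normalisation, Prf1 at -0.013 after median centring, and Zap70, Gzmb and Prf1 at -0.084, -0.091 and -0.031 with array weights. When 1 array was left out the ranges were -0.21 to 0.18 for Zap70, -0.35 to 0.16 for Gzma, -0.32 to 0.14 for Klrk1, -0.11 to 0.13 for Gzmb and -0.15 to 0.084 for Prf1. Without control 1 and mutant 2 Zap70 stood at -0.17 and Gzmb at -0.044. Without controls 2 and 3, which leaves 1 control array, 13 of the 32 genes changed sign, among them genes far from 0 with all arrays: Cd6 stood at 0.13, Cd28 at 0.029, Lat at 0.10, Cd4 at 0.068, Cd8a at 0.13, Cd8b1 at 0.033, Ctla4 at 0.31, Icos at 0.046, Tigit at 0.37, Nkg7 at 0.17, Klrk1 at 0.17, Gzmb at -0.12 and Prf1 at -0.17. The cause of these shifts was not tested. Leaving out arrays also leaves fewer samples, and both settings that omit a pair of arrays were chosen with earlier results known.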
